A study of Homo sapiens with 6 samples.

Results

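TGF-beta signalling was described in AB 8/13 podocytes through 10 genes of the pathway: the ligands TGFB1 and TGFB2, the latent TGF-beta binding proteins LTBP1 and LTBP2, the receptors TGFBR1 and TGFBR2, the signal transducers SMAD2 and SMAD3, the inhibitor SKIL and the target TGFBI. They were taken by symbol, and all 10 were among the 20745 genes of the deposited table. AB 8/13 is a human podocyte line that proliferates at 33 °C and was differentiated at 37 °C for 7 to 10 days before use. The 2 conditions sequenced, with 3 cultures each from different passages, were vehicle and 1 µM levamisole for 24 h. By the treatment protocol given with the samples neither condition had serum, though the treatment labels say so for the vehicle alone. By the methods the vehicle was complete medium, and it could not be settled which holds.

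For each gene, the table gives the authors' base mean, which is the normalized read count averaged by the authors over every library in their fit. How many libraries that was is not given in the sources used here. No value per culture is given, so the depth of each library and the spread between cultures are not part of what follows. The authors' own comparison of the conditions was not used, and the response to levamisole is not described. Every level below is therefore one pooled value with no error, and no difference between genes could be tested. The libraries were primed at the poly(A) tail, so that a transcript yields about the same number of reads whatever its length. Levels are given per gene. Where a ratio between genes is printed, it is also given per kilobase of the canonical transcript. Other comparisons of levels are per gene unless stated.

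The pathway works through a small set of parts. The ligand is secreted bound to its own propeptide, held in the matrix by a latent TGF-beta binding protein, and released there by integrins or proteases. It binds the type II receptor, which phosphorylates the type I receptor, and this in turn phosphorylates SMAD2 and SMAD3, which enter the nucleus with SMAD4. In the glomerulus, the pathway is known for its part in matrix accumulation and podocyte loss.

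Of the 10 genes, TGFBI had the highest base mean (1131 normalized counts) and TGFB1 the lowest (51.5 normalized counts). Between them, in descending order of base mean, came TGFB2, LTBP2, SMAD2, TGFBR1, SKIL, TGFBR2, SMAD3 and LTBP1. All 10 lay above the median base mean of the table, which was 21.8 normalized counts, and all 10 were at 50 or more, a level reached by 39.9% of the genes in the table. The median of the 10 was 367 normalized counts. Together they took 0.0699% of the summed base means, where 10 genes of average level would take 0.0482%; without the 22 mitochondrial genes in the sum, their share was 0.107%. TGFBI exceeded TGFB1 by 22.5-fold per kilobase, and by 24.9-fold with the median transcript length in place of the canonical one.

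**Figure D1:**
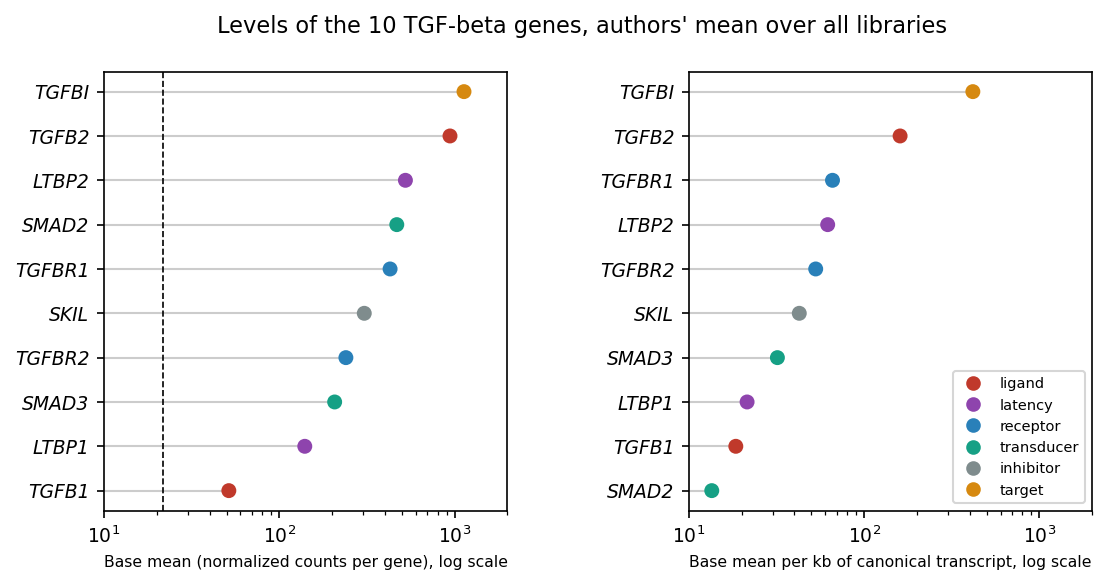
Base mean of the 10 TGF-beta genes in normalized counts (left) and per kilobase of the canonical transcript (right), both on log scales, 1 point per gene coloured by role, each the authors' pooled value without error; the dashed line on the left is the table's median of 21.8. TGFBI and TGFB2 lead on both scales, while SMAD2, at 468 on the left, is last on the right at 13.5.

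The ligands were far apart. TGFB2 had a base mean of 941 normalized counts, which put it at the 96.0th percentile of the table, with 820 genes above it. TGFB1, the isoform most studied in kidney fibrosis, had 51.5 normalized counts and lay at the 60.6th percentile of the table, but at the 38.7th among genes that reached 5 normalized counts and the 31.8th among those that reached 10. TGFB2 was thus 18.3 times TGFB1 per gene, 8.66 times TGFB1 per kilobase and 4.18 times with the median transcript length, and it made up 94.5% of the summed base means of the 3 ligand genes. The third ligand, TGFB3, which was not among the 10 genes, had 2.76 normalized counts.

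TGFB1 (ENSG00000105329) lies on the minus strand of chromosome 19 from 41301587 to 41353922 in GRCh38. TGFB2 (ENSG00000092969) lies on the plus strand of chromosome 1 from 218345336 to 218444619. Because the ligands stood furthest apart of the pairs sharing a role among the 10 genes, the 250 bases before the start of each are shown, 5′ to 3′ on the strand of the gene, from RefSeq on GRCh38.p14. Capitals mark matches on either strand to a TATA box spelled TATAAA, an E-box spelled CACGTG, a GC box spelled GGGCGG, a cAMP response element spelled TGACGTCA and the SMAD-binding letters CAGAC. Where matches overlap, as the CAGAC and the CACGTG of TGFB2 do by 1 base, the capitals run together. The windows are chr19:41353923-41354172 and chr1:218345086-218345335.
TGFB1: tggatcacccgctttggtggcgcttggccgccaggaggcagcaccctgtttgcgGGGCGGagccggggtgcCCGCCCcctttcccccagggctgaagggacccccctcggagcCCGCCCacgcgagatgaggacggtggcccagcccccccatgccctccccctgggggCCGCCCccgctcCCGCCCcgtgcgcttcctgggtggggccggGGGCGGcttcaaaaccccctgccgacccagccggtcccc
TGFB2: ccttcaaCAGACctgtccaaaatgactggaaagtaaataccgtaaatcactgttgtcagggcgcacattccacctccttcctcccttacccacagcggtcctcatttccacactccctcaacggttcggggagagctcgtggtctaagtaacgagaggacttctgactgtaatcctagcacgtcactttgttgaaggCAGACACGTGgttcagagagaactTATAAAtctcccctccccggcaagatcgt

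The TGFB1 window had a GC content of 76.8% and held 6 matches to GGGCGG and none to the other letters. The TGFB2 window had a GC content of 50.4% and held 1 match to TATAAA, 1 to CACGTG and 2 to CAGAC, and none to GGGCGG. Over the first listed window of each of 27305 genes of all kinds, the median GC content was 58.0%, and TATAAA occurred in 11.1%, CACGTG in 6.49%, GGGCGG in 42.3% and CAGAC in 37.8% of windows. The windows of the 10 genes were instead those nearest the canonical start, and their median GC content was 74.8%. Among the 10 genes, GGGCGG was found in 7 windows, CAGAC in 4, CACGTG in 2 and TATAAA in 1, that of TGFB2. TGACGTCA, found in 1.77% of all windows, was present in those of SKIL and LTBP1. These are matches of letters only, and binding was not measured.

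The latent TGF-beta binding proteins tether the latent ligand to fibrillin and other matrix proteins, although LTBP2 itself binds fibrillin without binding the latent ligand. LTBP2 (ENSG00000119681, chromosome 14, 74498183 to 74612378) had a base mean of 524 normalized counts, the third of the 10. LTBP1 (ENSG00000049323, chromosome 2, 32946953 to 33399509) had 140 normalized counts. LTBP2 was 3.75 times LTBP1 per gene, 2.88 times per kilobase and 1.92 times with the median transcript length. Of the other proteins of this family, LTBP4 had 421 normalized counts, below LTBP2 per gene but above it per kilobase (84.8 against 61.9 normalized counts per kilobase), and LTBP3 had 24.3 normalized counts.

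Both receptors were well represented. TGFBR1, the type I receptor kinase (ENSG00000106799, chromosome 9, 99104038 to 99154192), had a base mean of 428 normalized counts. TGFBR2, the type II receptor that binds the ligand (ENSG00000163513, chromosome 3, 30606601 to 30694142), had 240 normalized counts. TGFBR1 exceeded TGFBR2 by 1.79-fold per gene and by 1.25-fold per kilobase, and without values per culture these levels cannot be said to differ. The co-receptors were lower, with TGFBR3, which presents TGFB2 to the type II receptor, at 48.4 normalized counts and ENG at 40.7 normalized counts. TGFBR2 was 4.95 times TGFBR3 and 5.89 times ENG per gene, and 6.93 and 3.83 times per kilobase.

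Of the receptor-activated SMADs, SMAD2 (ENSG00000175387, chromosome 18, 47808957 to 47931146) had a base mean of 468 normalized counts. SMAD3 (ENSG00000166949, chromosome 15, 67063763 to 67195173) had 207 normalized counts. SMAD2 was 2.26 times SMAD3 per gene, the scale that fits libraries primed at the poly(A) tail, and 3.20 times SMAD3 with the median length of the protein-coding transcripts. The ratio fell to 0.422 per kilobase of the canonical transcript, which is 34626 bases long for SMAD2 and 6464 bases long for SMAD3. SMAD4, their shared partner, had 137 normalized counts.

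SKIL encodes SnoN, which binds SMAD complexes, represses their targets and is degraded when the ligand arrives. SKIL (ENSG00000136603, chromosome 3, 170357342 to 170396835) had a base mean of 305 normalized counts, at the 86.9th percentile of the table. Its relative SKI had 744 normalized counts, 2.44 times SKIL per gene and 2.87 times per kilobase.

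TGFBI, a secreted matrix protein named for its induction by TGF-beta (ENSG00000120708, chromosome 5, 136028988 to 136063818), had a base mean of 1131 normalized counts and lay at the 96.9th percentile, with 653 genes above it. It kept the first place among the 10 genes per kilobase, whether the canonical, the median or the longest transcript was used. Per gene it was 1.20 times TGFB2, the next of the 10, and without values per culture these levels cannot be said to differ. The ratio of TGFBI to TGFB2 was 2.60 per kilobase of the canonical transcript and 5.95 with the median length.

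**Figure D2:**
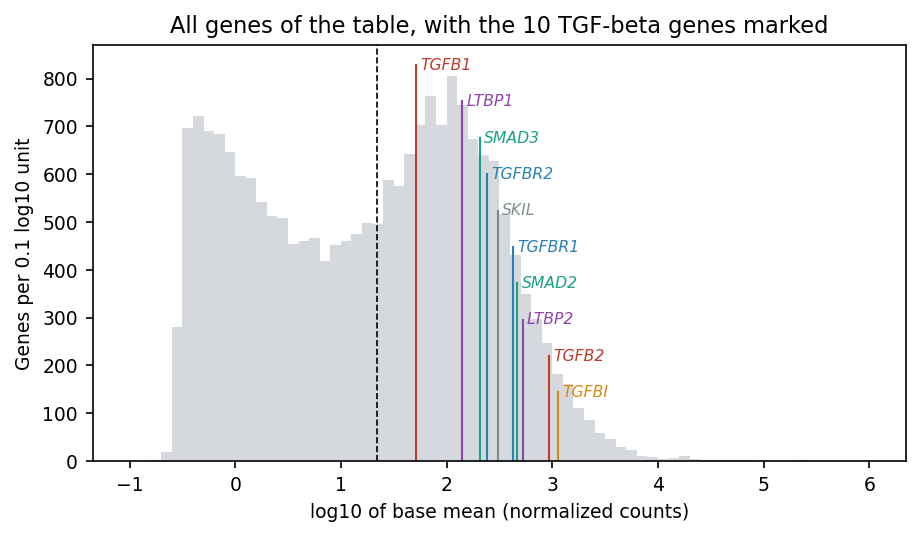
Number of genes (vertical axis) per 0.1 log10 unit of base mean (horizontal axis, normalized counts) over the 20745 genes of the table, with a coloured line at each of the 10 TGF-beta genes and a dashed line at the table's median of 21.8. Line heights only separate the labels; all 10 genes lie to the right of the median, from TGFB1 at 51.5 to TGFBI at 1131 normalized counts.

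The 10 genes were then set within a wider list of 51 pathway genes, of which 50 had a row in the table and 46 a base mean of at least 5, a level reached by 64.3% of the table. ACVRL1, an endothelial type I receptor, was the gene without a row and was not analysed here. Besides the 10 genes, 36 of 41 listed genes were at 5 or more, and the median of the 40 with a row was 364 normalized counts, against 367 for the 10 genes. By role, the median base mean was 51.5 normalized counts for the 3 ligands and 280 for the 12 genes of latency and activation. It was 144 for the 4 receptors and co-receptors with a row (48.4 with ACVRL1 counted as 0, below the ligands). The 4 genes listed as SMAD transducers, which were SMAD2, SMAD3, SMAD4 and the non-SMAD gene ZFYVE9 (32.1), had a median of 172. The medians were 263 for the 10 inhibitors and 1297 for the 17 targets.

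Among the genes of latency and activation, THBS1, which encodes thrombospondin-1, an activator of the latent ligand, led with 11062 normalized counts. It was followed by FBN1, the fibrillin to which the binding proteins attach, with 1718 normalized counts. THBS1 was 21.1 times LTBP2 per gene and 22.9 times per kilobase. ITGB8, an integrin subunit that activates the ligand, had 87.5 normalized counts, whereas ITGB6, its epithelial counterpart, had 5.53. The integrin subunits ITGAV and ITGB5, also in this list, were higher, at 627 and 592 normalized counts. NRROS, which anchors the latent ligand on myeloid cells, was below 5, at 1.13 normalized counts.

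The inhibitors were all above the median of the table, led by TGIF1, a nuclear co-repressor, with 2086 normalized counts, and PMEPA1, a feedback inhibitor induced by the pathway, with 1551. Of the 17 targets, 14 were above the table's median, led by TPM1, a tropomyosin of actin filaments, with 24709 normalized counts, and by CDKN1A, a cell cycle inhibitor, with 8222. The targets below 5 were COL1A2 and COL3A1, fibrillar collagen chains, with 1.24 and 1.79 normalized counts. COL1A1, the partner chain of COL1A2 in type I collagen, had 2732 normalized counts. These targets answer to many other signals, and their levels do not measure the activity of the pathway.

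**Figure D3:**
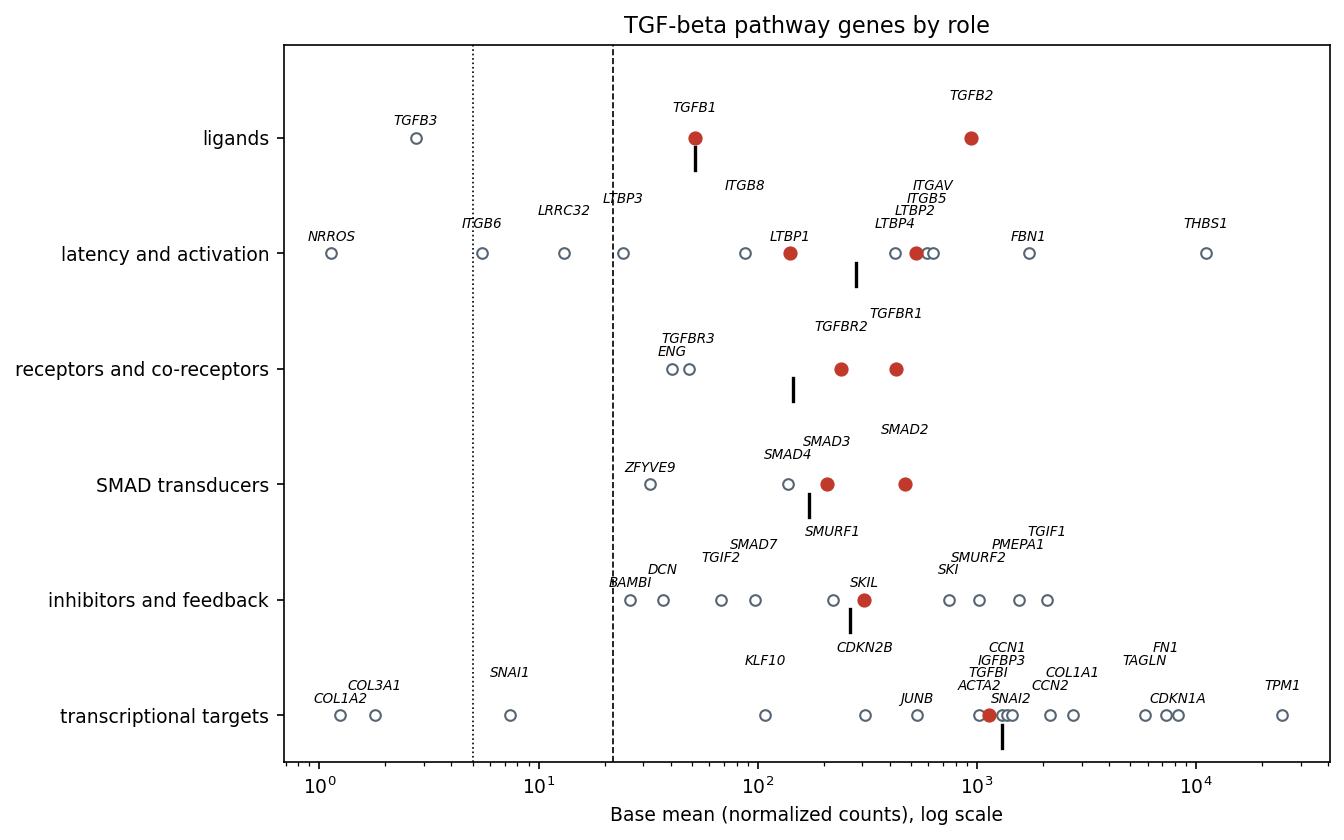
Base mean in normalized counts (log scale) of the 50 pathway genes with a row in the table, 1 point per gene in rows by role, with the 10 described genes filled in red, a short black bar at the median of each role, a dotted line at 5 and a dashed line at the table's median of 21.8. TGFB2 stands to the right of TGFB1 and TGFB3, and TGFB3, NRROS, COL1A2 and COL3A1 lie left of the dotted line.

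The identity of the cells was checked on the same scale. Of 12 podocyte markers, 10 had a row and 8 reached a base mean of 5, a level reached by 64.3% of the table. However, the highest of them, VIM (19062 normalized counts), ACTN4 (14320) and CD2AP (929), are shared with many other cells. Of the markers that define podocytes, WT1 had 6.21 and PODXL 15.3 normalized counts, below the table's median of 21.8, SYNPO had 22.8, just above it, and NPHS1 and LMX1B had no row. Of the markers of other kidney and blood cells, none of the 4 mesangial, 5 endothelial and 4 immune genes reached 5, with summed base means of 5.68, 0.740 and 1.89 normalized counts. The highest in these lists were PDGFRB at 4.14, VWF at 0.434 and CD68 at 1.06 normalized counts. Of the last 500 exonic bases of CD68, 82.6% are shared with another gene on the same strand, so its reads may have been left uncounted. Of the 5 tubular markers, AQP1 alone reached 5, with 243 normalized counts, while CUBN and SLC34A1 were under 5, and LRP2 and UMOD had no row. The part of other cells in the levels of the TGF-beta genes was not tested further.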

How the data were processed

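Libraries of 3 vehicle and 3 levamisole cultures were made with a modified CEL-seq method. Per the labels and methods, the authors used Trim Galore 0.4.5, STAR 2.7.5a on GRCh38, HTSeq-count 0.11.0 and DESeq2 1.22.0. The deposited base mean is a signal, the mean over libraries of counts divided by size factors. The 5 columns with the authors' own comparison (log2 fold change, its standard error, Wald statistic, p-value and adjusted p-value) were not used, and without values per culture the effect of levamisole was not analysed here. Depth per library is unknown.

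The 10 genes were matched by symbol, and listed genes by symbol or identifier. Members, lists and named genes were chosen with earlier results of these data known. All members are named, and of each pathway list the 2 highest genes and those under a base mean of 5, with others named to complete a family or role. Results for some listed genes are not reported here. Positions and transcript lengths came from GENCODE 44 on GRCh38 (20599 of 20745 identifiers matched), a later annotation than the authors'. None of the 10 genes had its last 500 exonic bases covered by another gene on either strand. Percentiles, ratios and matches of letters were computed with Python 3.11.15, NumPy 2.4.6 and pandas 2.3.3. The code for the percentiles was checked on simulated levels of known rank, which checks the calculation only. Figures were drawn with matplotlib 3.10.9. Alternatives were levels per kilobase, a total without mitochondrial genes, other minimums of base mean, and missing genes as 0.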

Additional observations from a re-analysis of the deposited data

How the results depend on the processing

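No paired analysis was possible because the table gives no value for any single culture, and no test, other normalization or left-out replicate could be run either. Of the 10 genes, 3 kept their exact place in the order of levels per kilobase of the canonical transcript, 3 with the median and 3 with the longest protein-coding transcript; TGFBI was first on every scale, and TGFB2 exceeded TGFB1 on every scale (4.18-fold with the median length). The share of the summed base means, 0.0699%, was 0.107% without the 22 mitochondrial genes, which took 34.8% of the total. The median percentile of the 10 genes, 88.8 among all genes, was 82.6 among genes with 5 or more normalized counts and 80.6 among those with 10 or more, and that of TGFB1 went from 60.6 to 38.7 and 31.8, below the middle of the better-measured genes. With ACVRL1 counted as 0, the median of the receptors and co-receptors was 48.4 in place of 144 normalized counts; the medians of the other pathway lists, with no missing gene, stayed as they were. Of the 51 listed pathway genes, 44 had 10 or more normalized counts and 37 had 50 or more, against 46 at the minimum of 5. Over the whole table, 57.8% of genes had 10 or more, 39.9% had 50 or more and 64.3% had 5 or more.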
